A study of Mus musculus with 12 samples.

Results

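The TET2 binding sites of a mouse acute myeloid leukemia (AML) culture were described here, as located by chromatin immunoprecipitation sequencing (ChIP-seq), which finds the DNA fragments that an antibody against a protein pulls down. The deposited AML list held 7002 intervals, of which 6877 lay on chromosomes 1 to 19. Overlapping intervals, even by 1 bp, were joined, which left 6778 sites, out of 26708 intervals in the 2 lists of the series. The AML libraries were 2 TET2 libraries from cells of genotype Npm1+/cA; Fl3+/ITD (spelled as in the labels), 2 from cells of genotype Npm1+/cA; Fl3+/ITD; Tet2-/-, 1 IgG library and 1 input library, the last 2 from cells with Tet2 intact. All AML groups carried both the Npm1 and the Flt3 allele and no transgene. The second list came from a culture immortalized with an AML1-ETO transgene and is called the myeloid list here, with 2 libraries each of genotype Tet2fl/fl; AML1-ETO and Tet2-/-; AML1-ETO, 1 IgG and 1 input. All cells grew in suspension with 3 cytokines, stem cell factor at 50 ng/ml and interleukins 3 and 6 at 10 ng/ml each. Crosslinking used first disuccinimidyl glutarate (2 mM) and then formaldehyde (1%), and the antibody was raised against the N-terminal part of TET2.

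Each list gives only chromosome, start and end of a site. No site has a height, a p-value or a value in any library, so knockout and wild-type libraries could not be set side by side, the depth behind a site is unknown, and no statement below carries a replicate error or a test. Intervals in brackets are exact Clopper-Pearson 95% intervals over sites or, for motifs, over the promoter windows defined below. Sites lie in clusters and windows can share a gene, so neither are independent. In a bulk culture, a site bound in few cells cannot be told apart from a site bound weakly in many. The sources used here do not say how the replicates and the Tet2-/- libraries entered the list. The sites are positions of TET2, not expression, so cell type markers below say where TET2 lay and do not check the identity of the culture.

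TET2 is a dioxygenase that oxidizes 5-methylcytosine in DNA, a step toward removal of the methyl group. It lacks the CXXC DNA-binding domain that TET1 has, and transcription factors of blood cells are known partners that bring it to DNA. TET2 is among the genes most often mutated in human myeloid leukemia and clonal hematopoiesis. Mutant NPM1 places a nucleolar protein in the cytoplasm and accompanies high HOX and MEIS1 expression, and the internal tandem duplication of FLT3 keeps this receptor kinase active.

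Promoters under AML sites show what DNA such sites cover. RefSeq promoter windows (GRCm38.p6, the coordinates of mm10), each from 250 bases before to 50 bases after a start, were at hand for 16457 of the 20665 protein-coding genes, 20085 windows in all. An AML site met 359 windows of 327 genes (1.99% of these genes), and 279 windows of 262 genes lay wholly inside a site. Of the 359 windows, 325 (90.5%) also met a myeloid site. The 250 bases before the start of 8 such windows follow, chosen after their sequences were seen: calprotectin genes and myeloid receptors whose windows hold motifs of blood factors, and the windows of Runx1 and Klf13, which hold none of those marked. Capitals mark, on either strand, RUNX (TGTGGT), the long ETS motif (GAGGAAGT), CEBP (TTGCNNAA) and AP-1 (TGANTCA).
S100a8 (chr3:90668821-90669070, plus strand): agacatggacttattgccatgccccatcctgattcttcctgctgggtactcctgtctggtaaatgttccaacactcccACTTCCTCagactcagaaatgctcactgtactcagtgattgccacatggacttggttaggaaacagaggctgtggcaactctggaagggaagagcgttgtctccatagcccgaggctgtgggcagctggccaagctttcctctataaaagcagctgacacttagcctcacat
S100a9 (chr3:90695722-90695971, minus strand): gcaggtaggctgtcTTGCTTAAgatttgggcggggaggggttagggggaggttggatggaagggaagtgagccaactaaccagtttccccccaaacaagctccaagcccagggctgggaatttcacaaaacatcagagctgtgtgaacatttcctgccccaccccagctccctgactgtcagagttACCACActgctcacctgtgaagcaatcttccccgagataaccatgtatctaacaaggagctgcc
Clec4e (chr6:123289872-123290121, minus strand): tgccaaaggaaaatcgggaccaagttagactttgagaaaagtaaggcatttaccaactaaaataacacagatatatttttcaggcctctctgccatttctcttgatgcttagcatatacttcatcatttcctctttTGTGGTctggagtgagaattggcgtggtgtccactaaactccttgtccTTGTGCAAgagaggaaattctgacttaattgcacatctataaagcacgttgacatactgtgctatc
Clec12a (chr6:129349994-129350243, plus strand): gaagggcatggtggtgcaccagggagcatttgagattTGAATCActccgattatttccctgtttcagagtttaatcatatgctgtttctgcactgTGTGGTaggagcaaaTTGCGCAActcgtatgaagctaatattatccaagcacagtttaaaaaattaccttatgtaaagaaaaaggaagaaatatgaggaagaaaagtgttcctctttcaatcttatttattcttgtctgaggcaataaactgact
C5ar2 (chr7:16244155-16244404, minus strand): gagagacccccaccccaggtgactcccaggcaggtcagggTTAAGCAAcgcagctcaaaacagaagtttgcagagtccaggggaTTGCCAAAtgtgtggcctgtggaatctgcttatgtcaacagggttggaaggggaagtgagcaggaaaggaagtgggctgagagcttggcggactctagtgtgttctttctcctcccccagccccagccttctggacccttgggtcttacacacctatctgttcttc
Fgd3 (chr13:49309209-49309458, minus strand): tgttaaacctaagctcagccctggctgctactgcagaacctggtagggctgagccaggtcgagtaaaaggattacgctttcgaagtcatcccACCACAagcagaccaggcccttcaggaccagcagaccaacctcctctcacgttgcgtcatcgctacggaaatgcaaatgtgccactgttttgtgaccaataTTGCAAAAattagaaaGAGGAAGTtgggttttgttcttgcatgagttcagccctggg
Runx1 (chr16:92826075-92826324, minus strand): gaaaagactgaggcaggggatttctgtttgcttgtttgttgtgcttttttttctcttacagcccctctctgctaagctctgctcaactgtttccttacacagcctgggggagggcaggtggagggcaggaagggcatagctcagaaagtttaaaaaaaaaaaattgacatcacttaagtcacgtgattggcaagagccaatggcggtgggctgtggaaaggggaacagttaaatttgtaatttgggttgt
Klf13 (chr7:63938916-63939165, minus strand): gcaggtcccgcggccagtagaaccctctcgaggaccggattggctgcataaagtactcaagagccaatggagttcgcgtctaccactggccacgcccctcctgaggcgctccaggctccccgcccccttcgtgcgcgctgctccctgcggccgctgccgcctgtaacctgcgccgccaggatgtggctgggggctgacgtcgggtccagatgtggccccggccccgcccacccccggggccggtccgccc

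S100a8 and S100a9 encode the chains of calprotectin, an abundant neutrophil protein. The S100a8 window holds a long ETS match and the S100a9 window a CEBP and a RUNX match. Clec4e (Mincle) and Clec12a are C-type lectin receptors of myeloid cells, and both windows hold RUNX and CEBP matches, with an AP-1 match at Clec12a. C5ar2, a receptor of complement fragment C5a, has 2 CEBP matches, and Fgd3, an exchange factor of the GTPase CDC42, has RUNX, CEBP and long ETS matches. The window shown for Runx1 has a GC share of 45.0% and that of Klf13 72.0%, so these promoters include both AT-rich and GC-rich DNA.

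Over all 279 windows inside AML sites, blood-factor motifs were more frequent than over all 20085 windows of the same length. RUNX matches lay in 24.4% of the windows inside AML sites (19.5 to 29.8), in 14.8% of all windows and in 13.2% of the 3097 windows inside myeloid sites that met no AML site. The CEBP motif was found in 19% (14.6 to 24.1), against 10.3% of all windows and 9.11% of the myeloid windows. For the long ETS motif the shares were 7.89% (5.01 to 11.7), 3.18% and 4.17%. The ETS core GGAANT, which every long match also contains, was in 73.5% (67.9 to 78.6), 52.4% and 59.6%.

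**Figure D1:**
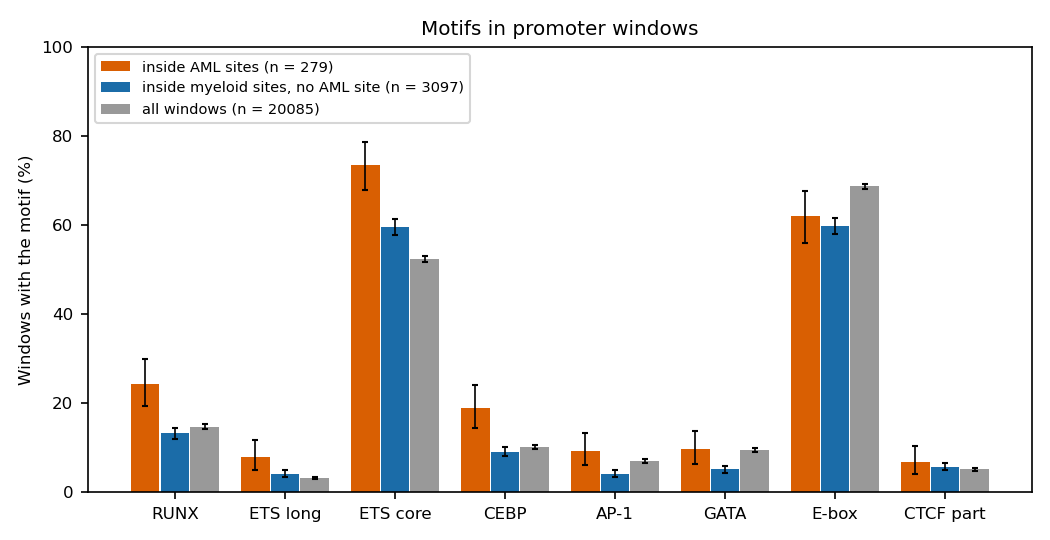
Percent of promoter windows (y axis) with a match to each motif (x axis) for windows wholly inside an AML site, windows inside a myeloid site that met no AML site, and all windows. Bars give the share and lines the exact 95% interval. The orange AML bar is the highest of the 3 for every motif shown but the E-box, where the bar of all windows is higher.

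For AP-1 the shares in AML windows, all windows and myeloid windows without an AML site were 9.32% (6.18 to 13.4), 7.06% and 4.23% (3.55 to 5.00). The motif AGATAA of GATA factors was in 9.68% (6.47 to 13.8), 9.57% and 5.20% (4.44 to 6.04), and the CTCF part CCACNAGG in 6.81% (4.15 to 10.4), 5.15% and 5.81%. The E-box CANNTG was in 62.0% (56.0 to 67.7), 68.7% and 59.8%. AP-1 and GATA shares were thus higher in the AML windows than in the myeloid windows, while their AML intervals include the shares of all windows. These intervals are over windows, which are not independent, since the 279 AML windows belong to 262 genes. The differences were not tested. All motifs were searched on both strands over 300 bases. A match is a run of letters and not a bound factor.

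Base composition differed between these sets, and its part in the motif shares was not tested. The median GC share was 59.3% in the windows inside AML sites, 63.0% in the myeloid windows without an AML site and 57.0% in all windows. The ratio of observed to expected CpG, which is high in CpG islands, had medians of 0.703, 0.834 and 0.586. It was above 0.6 in 57.0% of the AML windows, 85.6% of the myeloid windows without an AML site and 48.9% of all windows. The quartiles of the AML windows, 0.304 and 0.894, span CpG-poor and CpG-rich promoters.

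Promoters were a small part of the AML sites. The 6778 sites covered 5.04 Mb, with widths from 651 to 1850 bp, a median of 721 bp and quartiles of 686 and 772 bp. By site midpoint, 8.75% (8.09 to 9.45) lay within 1 kb of either end of a protein-coding gene. Gene bodies held 45.4% (44.3 to 46.6), and 45.8% (44.6 to 47.0) were intergenic. Of 487 gene-end sites whose gene has a promoter window, 335 (68.8%) lay at the start of the gene and 152 at its other end. The median distance to the nearest start was 28.7 kb over the 6592 sites on chromosomes with windows. Only 6.31% of them lay within 1 kb of a start, and 46.3% lay upstream of the nearest start. Starts were known only for the 16457 genes with a window, and 106 gene-end sites had no window for their gene. The share near a start may thus be too low and the median distance too high. Within genes of known strand, 27.5%, 27.9%, 23.9% and 20.7% of 2464 placements fell in 4 successive parts of equal length from the start of the gene, so gene bodies were occupied along their whole length.

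Some sites lay far from the ends of protein-coding genes. Over 100 kb from any such end lay 793 sites (11.7%; 10.9 to 12.5), 262 of them inside long genes. Counted over every annotated gene, non-coding ones included, the share was 2.24%. The 5 sites farthest from a gene end, 1387 to 1812 kb away, were all also in the myeloid list. The farthest, chr5:59996386-59997231, had G6pd2 as its nearest gene. Among the widest sites, 4 had Rcn3, Ap5b1, Cry1 and Ntrk2 as nearest genes, with a gene end 0.011, 1.24, 81.8 and 109 kb away. These 4 were 1524 to 1694 bp wide, and each was joined from 2 or 3 deposited intervals. At the other extreme, 227 sites had the least width of 651 bp. The 5 taken by position among these lay in Sgk3, Ncoa2 and Eya1 and at 12.1 kb from Ino80d and 51.9 kb from Mreg. These 5 were AML-only, while others of this width, such as one 38.9 kb upstream of Tet2, were also in the myeloid list.

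Density differed by chromosome. Chromosome 19 had 4.08 sites per Mb and chromosome 11 had 3.64, against 2.05 on chromosome 18 and 2.755 over all 19 chromosomes. The order was another one per 100 protein-coding genes. Chromosomes 19, 11 and 18 then had 35.5, 27.6 and 36.4 sites, with the most on chromosome 12 (49.3) and the fewest on chromosome 7 (20.6).

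**Figure D2:**
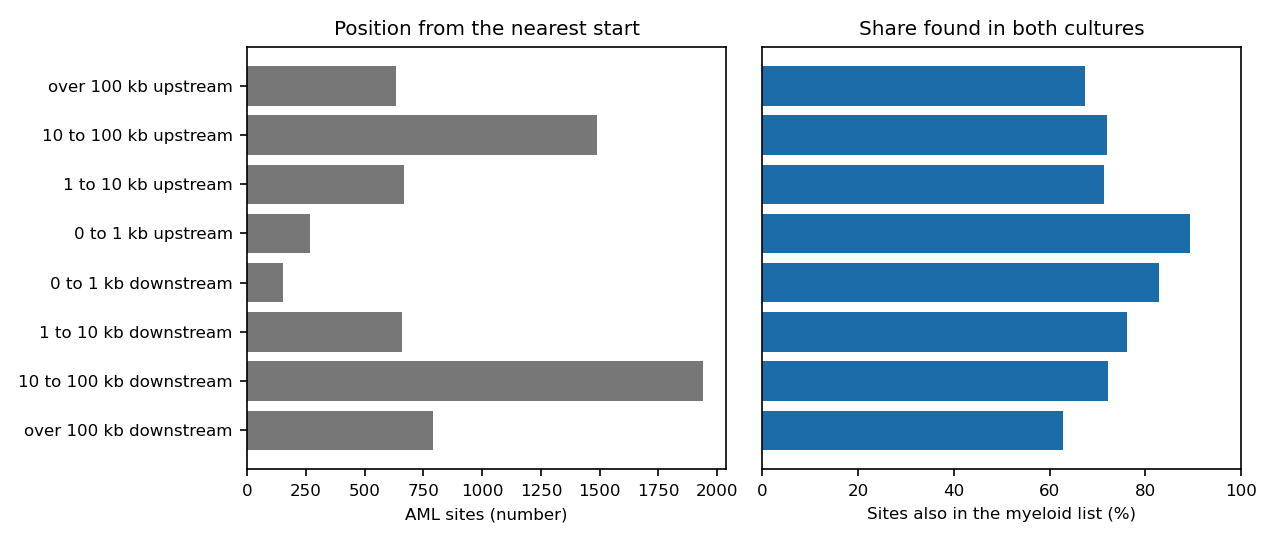
Number of AML sites (left, x axis) and percent of them that are also in the myeloid list (right, x axis) by position relative to the nearest RefSeq start (y axis). The largest class, 1940 sites, lies 10 to 100 kb downstream of a start, and sites just upstream of a start have the highest shared percentage.

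An AML site was called shared where it met a site of the longer myeloid list (18533 merged sites) by at least 1 bp. Of the AML sites, 4865 (71.8%; 70.7 to 72.8) were shared and 1913 were AML-only. The shared percentage followed position and width. It was 82.8% (79.5 to 85.8) at gene ends, 72.3% (70.7 to 73.9) in gene bodies, 69.1% (67.5 to 70.8) between genes and 62.3% (58.8 to 65.7) over 100 kb from a gene end. Of the 265 sites in the last kb upstream of a start, 89.4% were shared, and over 100 kb downstream of a start 62.9% were. With sites split by width at the quartiles, from narrowest to widest, it was 60.8% (58.5 to 63.2), 70.5% (68.3 to 72.6), 75.2% (73.0 to 77.2) and 80.8% (78.8 to 82.6). A wider interval can meet another more easily, and how much of the trend this makes was not tested. By chromosome the shared percentage ran from 66.5% on chromosome 13 to 79.7% on chromosome 11.

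**Figure D3:**
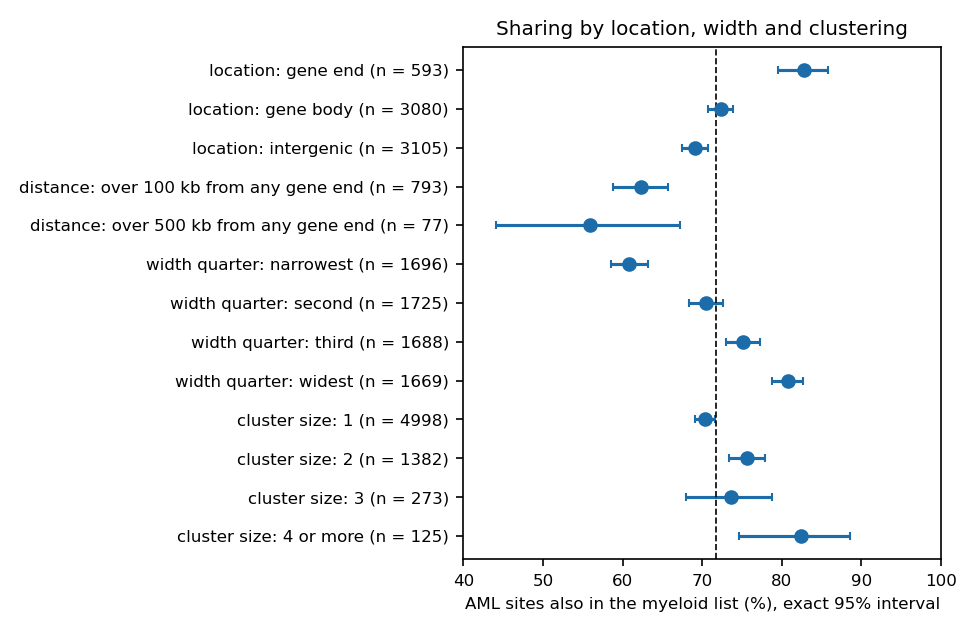
Percent of AML sites also in the myeloid list (x axis) for sites grouped by location, distance from a gene end, width and the number of sites within 10 kb of each other (y axis, with the number of sites). Points give the share, lines the exact 95% interval and the dashed line 71.8%, the share over all AML sites. Gene-end sites, the widest sites and clusters of 4 or more lie above the line, and the narrowest sites and those over 100 kb from a gene end below it.

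AML sites often lay near each other. The gap to the next site had a median of 97.8 kb and quartiles of 25.1 and 319 kb, and 1780 sites (26.3%) had a neighbour within 10 kb. Runs of at least 4 sites no more than 10 kb apart formed 29 clusters, 2 with 6 sites, 5 with 5 and 22 with 4. Of their 125 sites, 82.4% (74.6 to 88.6) were shared, and 14 clusters were shared in every site.

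The 2 clusters of 6 sites differed in surroundings. The first, chr2:117965626-117996649, spans 31.0 kb with no gene inside, and its nearest site is 116 kb from the closest gene, Thbs1, which encodes the adhesion protein thrombospondin. All 6 sites were shared. The other, chr7:16239595-16258354, spans 18.8 kb across C5ar1 and C5ar2, which encode the receptors of the chemoattractant C5a, with all 6 shared. On the plot of sites around genes they appear at 1.34, 4.84, 8.46, 13.2, 15.0 and 19.4 kb downstream of the C5ar1 start, so they run through C5ar1 into C5ar2.

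Among clusters of 5 sites, chr3:90659491-90696212 covers S100a8, S100a9 and the side of S100a7a, with all 5 shared. A site lay 0.111 kb upstream of the S100a8 start and another 0.070 kb upstream of the S100a9 start, and 2 sites lay between the genes. Ccnd3, which encodes the G1 cyclin D3, had 5 shared sites in chr17:47504691-47523773, at its start and 3.12, 12.04, 16.6 and 18.4 kb into the gene. The cluster at Cd300lb and Cd300a (chr11:114897866-114917694), immune receptors of myeloid cells, had 4 of 5 sites shared. So did the cluster at 1600014C10Rik (chr7:38181220-38200728) and the one beside Ctsd (chr7:142389991-142404107), which encodes the lysosomal protease cathepsin D.

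The next clusters in rank had 4 sites each. N4bp1, a negative regulator of cytokine responses, had all 4 shared, the desert between Irf2bpl and Lrrc74a had 2 of 4, and Htr2a, a serotonin receptor gene, had 3 of 4. The shortest cluster, 4 shared sites within 4.34 kb (chr17:26531420-26535756), lay between Dusp1, which encodes a phosphatase of MAP kinases, and Ergic1. It begins 23.3 kb from Dusp1, and its last site is nearer to Ergic1, 25.4 kb away. Gm40892 alone among the 29 had no shared site. Its 4 AML sites at chr12:92882479-92892552 met no myeloid site, and 0 myeloid sites lay within that span. Dusp1 and Gm40892 were singled out after their values were seen.

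Around the genes of blood transcription factors, AML sites lay mostly at a distance from the starts. Runx1 (chr16:92601466-92826074, minus strand), a core factor of blood stem cells, had 8 sites within 100 kb of a start, all shared. Their midpoints lay 54.8 and 41.4 kb upstream of the first start, 0.029 kb past it, and 24.3, 61.1, 110, 172 and 205 kb downstream, so sites run through the whole gene. Runx3, its relative in myeloid and T cells, had 6 sites, of which 3 were shared. Cebpa (chr7:35119293-35121928), the factor that sets granulocyte identity, had 3 shared sites within 100 kb, 62.0 kb upstream and 35.3 and 37.4 kb downstream. All 3 lie nearer to the ends of Gm45095 or Slc7a10 and count for those genes below, where Cebpa has 0. Cebpb (chr2:167688915-167690432), active in monocytes and in granulocytes under demand, had 8 within 100 kb, 3 upstream and 5 from 21.9 to 88.6 kb downstream, and 7 were shared. Enhancers active in blood have been described downstream of Cebpa and in the first intron of Runx1, and whether these sites coincide with them was not tested.

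Gata2 (chr6:88193891-88207032), a factor of stem cells and mast cells, had 6 sites within 100 kb. The 5 upstream lay 87.0, 76.8, 57.6, 27.6 and 19.5 kb from the start, and the first 3 of them are nearer to Rpn1. The site at 57.6 kb and the downstream site were AML-only. Gfi1, a repressor of granulocyte and stem cell genes, had sites 51.2 and 23.9 kb upstream and 19.9 and 26.7 kb downstream of its first start, all 4 shared. Irf8, a monocyte and dendritic cell factor, had 2 within 100 kb, 50.1 kb upstream and 4.86 kb past the first start. Spi1, which encodes PU.1, had 2 shared sites, chr2:91082656-91083509 at the gene end and chr2:91088877-91089660 in the gene. Unlike the other factors named here, Spi1 and Runx1 had a site at an end of the gene.

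Genes of survival, NF-kB feedback and growth differed in where their sites lay. Mcl1, an inhibitor of apoptosis, had 2 sites 7.92 and 6.29 kb upstream of its start and 3 from 35.5 to 49.03 kb downstream, all shared. The one at 35.5 kb was 1345 bp wide. Bcl2l11, which encodes the pro-apoptotic BIM, had 6 sites. The 4 from 70.9 to 52.3 kb upstream form a cluster inside the neighbouring gene Acoxl, and 3 of these were shared, while those at 52.3 and 26.5 kb upstream and at 95.2 kb downstream were AML-only. Nfkbia, which encodes the NF-kB inhibitor IkB-alpha, had 9 within 100 kb, all shared, 8 of them downstream of its start and the nearest 3 of these 0.658, 3.80 and 6.66 kb past it. Myc, a growth regulator, had 3 sites 60.5, 66.2 and 73.2 kb from its end (chr15:62050494-62063923). All 3 were AML-only, although the myeloid list also gives 3 sites to Myc.

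**Figure D4:**
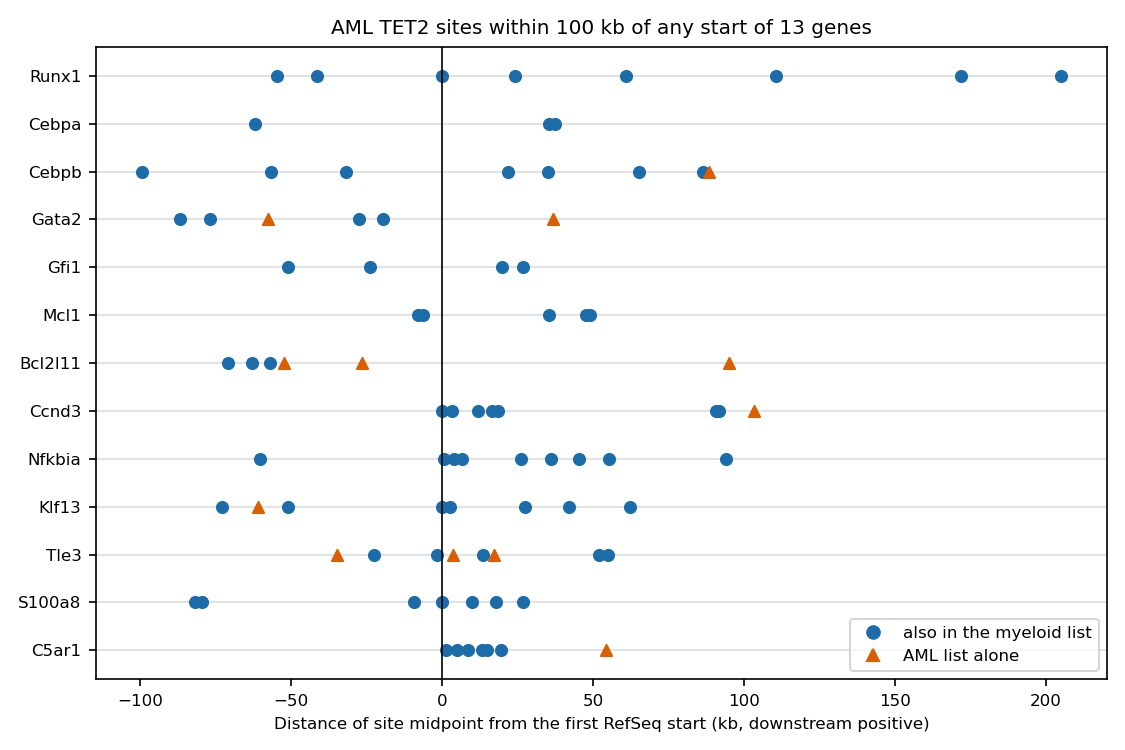
Positions of AML sites within 100 kb of any start of 13 genes (y axis), as distance of the midpoint from the first RefSeq start in kb (x axis, downstream positive). Blue circles are sites also in the myeloid list and orange triangles AML-only sites. Runx1 sites extend to 205 kb downstream, 6 of 7 C5ar1 and 5 of 8 Ccnd3 sites lie within 20 kb of the start, and Bcl2l11 has AML-only sites on both sides.

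To count genes, each site was assigned to the protein-coding gene with the nearest end, within 100 kb. Of 20665 genes, 4004 had a site, a background of 19.4%. Sites within 10 kb of an end gave 2175 genes (10.5%), and gene-end sites 585 genes (2.83%). Most occupied genes, 2738, had 1 site, and 169 had at least 4 (0.818% of all genes). Gene length moved with occupancy. With genes split by length at the quartiles, from shortest to longest, 8.40%, 14.2%, 21.0% and 33.9% had a site. Among the 1266 genes with at least 2 sites, all were shared in 627 and none in 87.

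The 20 genes with most sites had 6 to 8 each and lengths from 27.5 kb (Mdm1) to 522 kb (Atrnl1), where the median over all genes was 17.5 kb. Runx1, Susd1, Tle3, Atp8b4 and Igf1r had 8. The 8 assigned to Runx1 are not quite those given by distance from its starts: the site 110 kb downstream is over 100 kb from an end and not assigned, and chr16:92572964-92573667, 28.2 kb from the gene, is. Tle3, a corepressor of the Groucho family, had sites from 34.8 kb upstream to 54.9 kb downstream of its start, 5 of 8 shared. Igf1r, the receptor of insulin-like growth factors, had 6 of 8 shared, Susd1 7 of 8 and Atp8b4, of the phospholipid flippase family, 4 of 8. Genes with such mixed sites stand beside Runx1, Emb and Gnaq, whose sites were all shared.

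Klf13, Map4k4, Mdm1, F13a1, Adtrp and Sgms1 had 7 sites. The zinc finger factor Klf13 had 6 shared, among them a site 0.042 kb upstream of its start. F13a1, the A chain of coagulation factor XIII and a monocyte gene, had 6 shared, and those 6 lay outside the gene, 6.66 to 80.6 kb away. All 7 sites of Sgms1, a sphingomyelin synthase, lay in the gene body, 5 of them shared. Mdm1 had 3 shared and Map4k4, a kinase of stress signalling, 6. The remaining 9 had 6 sites each: Emb, Gcnt2, Irf2, Tbc1d8, Atrnl1, Map3k20, Arsb, Gnaq and Itpr1. Irf2, an interferon regulatory factor, had 3 of 6 shared, and Itpr1, a calcium channel of the endoplasmic reticulum, 5 of 6. Gnaq, a G protein alpha subunit, had 5 of its 6 sites within 48.2 kb of the gene on 1 side and 1 inside it.

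Adtrp differed from the other 19, since none of its 7 sites was shared and the myeloid list assigned 0 sites to it. Adtrp (chr13:41763145-41847616) encodes a membrane hydrolase of fatty acid esters. Sites lay at chr13:41727700-41728386, chr13:41865211-41865893 and chr13:41921467-41922193 outside the gene, and 4 lay inside, from chr13:41786447-41787173 to chr13:41827998-41829128. Enpep, a membrane aminopeptidase, had 4 AML-only sites inside the gene, while the myeloid list had 2 others. Nipbl, the cohesin loader, had 2 AML-only sites 9.62 and 5.09 kb from an end, and 0 myeloid sites. Adtrp is named as 1 of the 20 genes with most sites, and Enpep was singled out after its values were seen. Whether 1 library carries these sites cannot be seen in the list.

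Gene lists were read against the background of 19.4%. Over 38 lists, 716 distinct genes were in the lists given by name, and 372 of them had a site. Among the lists described, secondary and tertiary granule genes had the highest share (84.0%). FLT3 and STAT5 signalling, RAS and ERK feedback, cytokine receptors and glycolysis followed, at 72.4% to 70.0%. The lowest shares were those of olfactory and vomeronasal receptors, B cell genes, keratins and ribosomal protein genes, at 1.63% to 6.49%. In all, 27 lists lay above the background and 11 below. The lists were chosen with earlier results of these data known, some share members, and no list was tested.

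**Figure D5:**
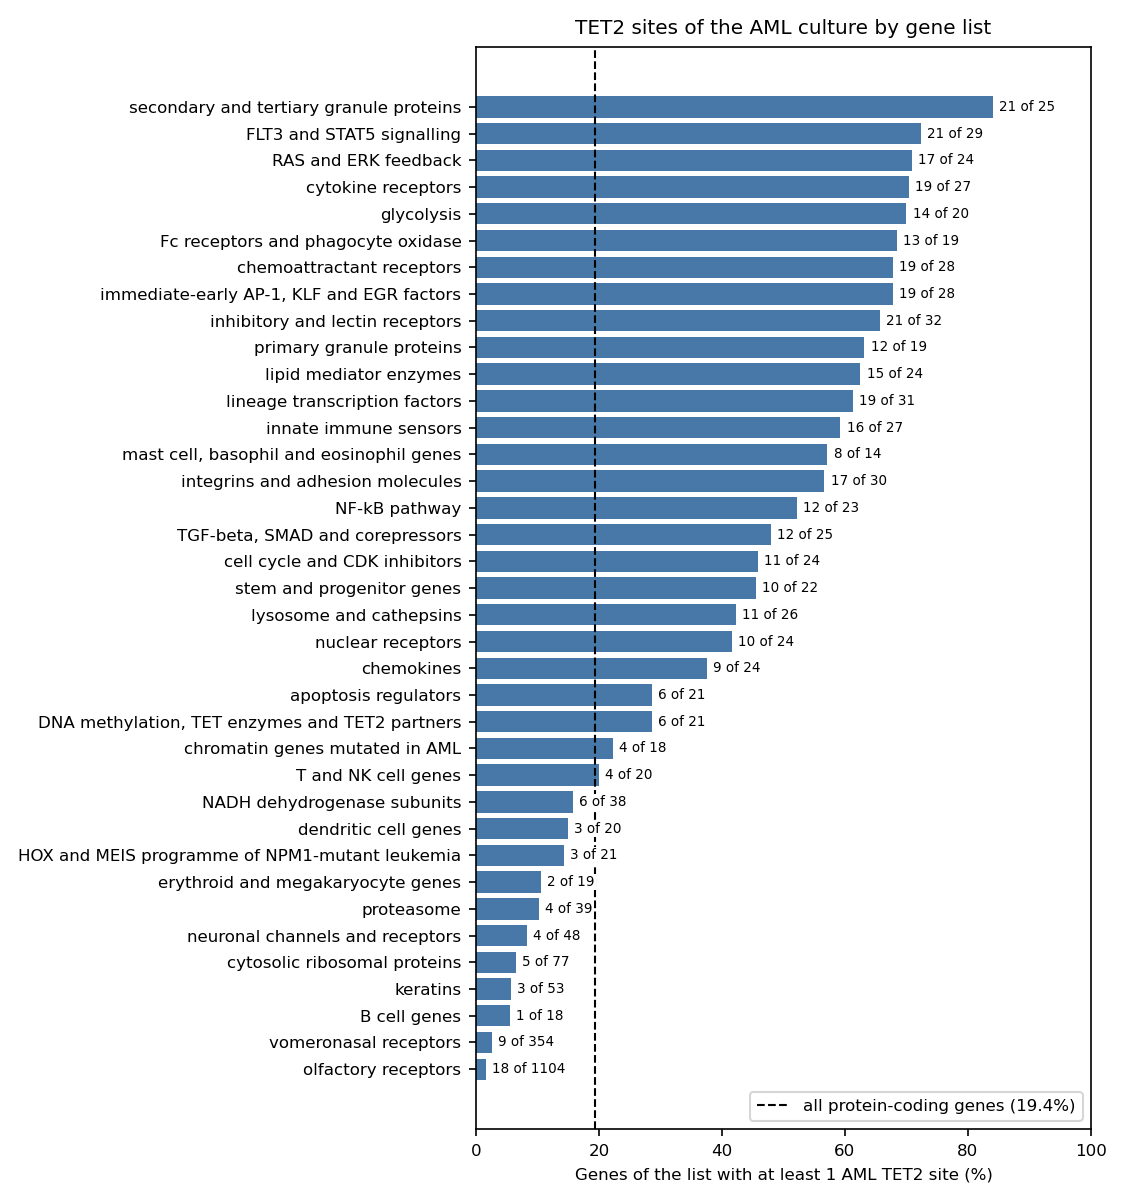
Percent of the genes of each list described with at least 1 assigned AML site (x axis), with the number of genes beside each bar. The dashed line marks 19.4%, the share over all protein-coding genes. Secondary and tertiary granule genes stand at 84.0%, and olfactory receptor genes at 1.63%.

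Granule genes of later neutrophil stages were occupied most often. In the secondary and tertiary granule list 21 of 25 genes (84.0%) had a site, with 18 within 10 kb and 10 at a gene end, although their median length was 7.88 kb. Chil3, a chitinase-like protein, had 4 sites, 3 of them within 5.17 kb upstream of its start. Cd177 and the protease inhibitor gene Stfa1 had 3 each and Anxa1 had 2, while Chil1 and Mmp25 had 0. Stfa1 has near-identical neighbours, so reads there may be split among copies. Camp and Lcn2, which encode the antimicrobial cathelicidin and lipocalin 2, had a shared site 0.171 and 0.177 kb upstream of the start. The list of primary granule genes, made in promyelocytes, had sites in 12 of 19 (63.2%), each with 1. These 12 include Calr and Gstm1, which do not encode granule proteins, each with a shared site. The sites of Ctsg and Lyz1 were AML-only, while Elane and Prss57 had 0. The Mpo site lay 3.52 kb upstream of its start, and a site 8.30 kb upstream of Elane was nearer to Prtn3.

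Receptors at the surface of phagocytes were also occupied above the background. Among chemoattractant receptors, 19 of 28 (67.9%) had a site. C5ar1 had 4, the fractalkine receptor Cx3cr1 3, S1pr3 3 and the CXCL12 receptor Cxcr4 3, and Ccr7 and Ccrl2 had 0. Inhibitory and lectin receptors had 21 of 32 (65.6%), with 19 within 10 kb and 7 at a gene end. Cd33, a sialic acid receptor, had 4 sites, Cd300a and Cd300lb 3 each and Cd300lf 2, and Cd300ld and Pira2 had 0. In the Fc receptor and phagocyte oxidase list, 13 of 19 (68.4%) had a site and 9 of 17 sites were shared. The inhibitory Fc receptor Fcgr2b, the oxidase subunit Ncf4 and Fcgr4 had 2 each, and the scavenger receptor Cd36 had 2 AML-only sites. Integrins and adhesion molecules had 17 of 30 (56.7%). Itgb3, Emilin2 and Cd47 had 4 each and Itgb2, the shared beta chain of leukocyte integrins, 3, whereas Itga1 and Itga2 had 0.

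Cytokine receptors had sites in 19 of 27 (70.4%). Il17ra had 5, 4 of them in a shared cluster within the gene, and Ifnar1, Ifngr1 and Il1rap, receptor chains for interferons and interleukin 1, had 3 each. Csf2rb and Csf3r, chains of the interleukin 3 and G-CSF receptors, had 0 assigned. Chemokine genes were occupied less often, 9 of 24 (37.5%), with a median length of 2.49 kb. Ccl2 had 4 sites, Cxcl1 and Ccl6 2 and Ccl3 1, while Ccl4 and Ccl5 had 0.

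Signalling downstream of FLT3 was widely occupied, at 21 of 29 genes (72.4%), 12 within 10 kb and 2 at a gene end. The myeloid list had a site at 27 of these 29 genes, where it had one at 41.6% of all genes. Their median length was 43.0 kb, against 17.5 kb over all genes. Pik3r1, the regulatory subunit of PI3 kinase, had 4 sites, and the adaptor Grb2, the phosphatase Inpp5d (SHIP) and the kinase Syk 3 each. Flt3 itself (chr5:147330741-147400489) had 1 shared site, 11.3 kb into the gene, and Flt3l and Stat5a had 0. In RAS and ERK feedback, 17 of 24 (70.8%) had a site. Dusp1 and Rasa2, a RAS GTPase-activating protein, had 4, Rps6ka1 and the ERK inhibitor Spred2 3, and Nras and Nf1 had 0. Glycolysis genes had 14 of 20 (70.0%). Hk2 and Pfkfb3, which drive glucose use, had 4, Eno1 and the glucose transporter Slc2a3 3, and Hk1 and Pfkm 0.

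Lineage transcription factors had sites in 19 of 31 (61.3%), led by Runx1, Irf2 and Runx3, then Cebpb with 5, and with 0 at Cbfb and Cebpa. Immediate-early factors had 19 of 28 (67.9%). After Klf13, Ier3 and the AP-1 subunit Fosl2 had 4 shared sites each and Klf2 had 3, 2 of them at a gene end, and Batf and Maff had 0. Nuclear receptors had 10 of 24 (41.7%). Pparg, the lipid-sensing receptor, had 4 with 1 shared, and that shared site was 1300 bp wide and lay 0.548 kb upstream of 1 of its 3 starts. Nr4a1 and Nr3c1 had 2 each, and Rara and Rarb 0. TGF-beta, SMAD and corepressor genes had 12 of 25 (48.0%), with Tle3, then Ski 4 and Hdac4 and Smad3 3, and 0 at Tgfb1 and Tgfb2.

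Inflammatory pathways and lysosomal genes lay above the background too. The NF-kB list had 12 of 23 (52.2%). Nfkbia and Tank led, with 5 sites each, then Tnfaip3, which encodes A20, with 4 and Traf1 with 2, while the subunit genes Rel and Rela had 0. Innate sensors had 16 of 27 (59.3%), at 1 or 2 sites a gene, with 2 at Tlr1, Tlr4 and its partner Ly96, 1 AML-only site at Casp4 and 0 at Tlr3 and Tlr9. Lipid mediator enzymes had 15 of 24 (62.5%). Alox5, which makes leukotrienes, and its partner Alox5ap had 3 shared sites each, as did the prostaglandin synthase Ptgs2, and the thromboxane synthase Tbxas1 had 3 with 2 shared. Alox12 and Ptges3 had 0. Lysosomal genes had 11 of 26 (42.3%), with 5 sites at Ctsd, 1 each at Cd63, Ctsb and Ctsz, and 0 at Lamp1 and Ctsa.

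The HOX and MEIS programme of NPM1-mutant leukemia lay below the background, with a site at 3 of 21 genes (14.3%). Counted over every annotated gene, non-coding ones included, it lay slightly above, at 14.3% against a background of 13.2%. Hoxb3 had 1 AML-only site in its body (chr11:96310439-96311090), Xpo1, the nuclear exporter of mutant NPM1, had 1 shared site in its body, and Meis1 had 1 shared site 93.9 kb past its start. Hoxa2 had 0, Npm1 had 0, and no site lay within 100 kb of the Hoxa9 start. Their median length was 4.27 kb, and of the genes in the shortest of the 4 length groups 8.40% had a site.

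Stem and progenitor genes had 10 of 22 (45.5%). Counted over every annotated gene they had 3 of 22 (13.6%), near that background of 13.2%. Angpt1, a ligand of the TEK receptor, had 4 shared sites, Zfp36l2 and Myc 3 and Cd34 2, and Tal1 and Myb 0. Cell cycle genes had 11 of 24 (45.8%), with 5 at Ccnd3, 4 at Cdk6, its kinase partner, 3 at E2f2 and 2 at Btg1, and 0 at Ccnd1 and Ccnd2. Apoptosis genes had 6 of 21 (28.6%), with Bcl2l11 first, 2 at Pmaip1, 1 at Bcl2a1a and 0 at Bcl2 and Bcl2a1b. Bcl2a1a and Bcl2a1b are near-identical copies, so reads may be split between them.

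Genes of DNA methylation and TET2 partners had 6 of 21 (28.6%), with 0 at a gene end. Mbd2, a reader of methylated DNA, had 3 sites, the TET2 partner Zfp281 2 and Dnmt1 and Dnmt3l 1 each, and Tet3 and Dnmt3a had 0. Tet2 (chr3:133463677-133545136) had 1 shared site of the least width, 651 bp, 38.9 kb upstream of its start. Chromatin genes mutated in AML had 4 of 18 (22.2%), close to the background. The reading depends on the setting. Within 10 kb of an end their share was also 22.2%, against 10.5% of all genes. With any site within 50 kb it was 72.2%, against 38.7%. Their median length was 61.6 kb, and of the genes in the longest of the 4 length groups 33.9% had a site. Eed, a Polycomb subunit, had 4 sites with 1 shared, Nipbl and Asxl2 had 2 each, and Asxl1 and Ezh2 0.

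Lists of markers of other blood cells lay near or below the background of 19.4%, with 1 exception. Mast cell, basophil and eosinophil genes had 8 of 14 (57.1%), with 2 sites at Hdc, Siglecf, Il1rl1 and Ccr3 and 0 at the proteases Cma1 and Mcpt4. Dendritic cell genes had 3 of 20 (15.0%), the shared sites of Irf8, Batf3 and Flt3, and Zbtb46 and Xcr1 had 0. T and NK cell genes had 4 of 20 (20.0%), near the background, at Cd3d, Lat, Cd2 and Ncr1, and 0 at Cd3e and Cd3g. Erythroid and megakaryocyte genes had 2 of 19 (10.5%), AML-only sites at Vwf and Tfrc, and 0 at Klf1 and Epor. In the B cell list 1 of 18 (5.56%) had a site, at Igll1, and Ms4a1 had 0.

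Housekeeping and non-blood families lay below the background of 19.4%. Ribosomal protein genes had 5 of 77 (6.49%), with 2 sites at Rpl5 and 1 at Rpl37, Rps10 and Rps9, and a median length of 3.18 kb. Proteasome genes had 4 of 39 (10.3%). Psma6 had 4 sites, of which 3 lie 45.4 to 93.95 kb downstream of the Nfkbia start. NADH dehydrogenase subunits had 6 of 38 (15.8%), with 2 at Ndufb6 and none within 10 kb. These 3 shares depend on giving each site to 1 gene: with any site within 50 kb counted, ribosomal protein genes had 29 of 77 (37.7%), NADH dehydrogenase subunits 36.8% and proteasome genes 46.2%, against a background of 38.7%. Neuronal channels and receptors had 4 of 48 (8.33%), despite a median length of 94.9 kb, with 3 at the potassium channel Kcna3, which lymphocytes also use. Keratins had 3 of 53 (5.66%), at Krt75, Krt80 and Krt86. Vomeronasal receptors had 9 of 354 (2.54%) and olfactory receptors 18 of 1104 (1.63%), with 2 sites at most, as at Vmn1r43 and Olfr372. These receptors lie in gene clusters and are not independent of each other.

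MicroRNA genes were examined by distance. Of 1136 microRNA genes, 104 (9.15%) had an AML site within 10 kb, and of 28 blood and leukemia microRNAs named in a list, 6 did. The mature sequences of these 6 follow, from RefSeq, with the seed (bases 2 to 8) in capitals, since the seed sets which messages a microRNA binds.
mmu-miR-29a-3p: uAGCACCAucugaaaucgguua
mmu-miR-29b-3p: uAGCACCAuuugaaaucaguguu
mmu-miR-142a-3p: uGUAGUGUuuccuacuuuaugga
mmu-miR-142a-5p: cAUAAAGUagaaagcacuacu
mmu-miR-10a-5p: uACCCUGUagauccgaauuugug
mmu-miR-126a-3p: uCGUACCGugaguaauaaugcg
mmu-miR-34a-5p: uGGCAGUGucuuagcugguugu

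The 2 miR-29 arms share their seed, and their genes share a site. That site, chr6:31065353-31066014, lay 2.59 kb from Mir29b-1 and 2.94 kb from Mir29a, and it was shared with the myeloid list. Targets of miR-29 known from other work include the DNA methyltransferases and the TET enzymes. Mir142, specific to blood cells, had a shared site 5.12 kb away, Mir126a, of stem cells and endothelium, 6.58 kb away, and Mir34a, a target of p53, 7.80 kb away. Mir10a, inside the Hoxb cluster, had the AML-only Hoxb3 site 6.40 kb away. The leukemia microRNAs Mir196b and Mir155 were 224 and 109 kb from their nearest site, both AML-only, and Mir125b-1 was 244 kb away.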

How the data were processed

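The files used were 2 lists of TET2 sites deposited by the authors, 1 per culture, whose values are genome positions in bp and no other measurement, per the file headers. The tools named in the submitters' processing notes are MACS2, Bowtie2 and Trimmomatic, with the mm10 build. Versions, thresholds, options and the use of replicates, IgG, input and Tet2-/- libraries: not given in the sources used here. Whether starts count from 0 or 1 is not stated either, so positions are uncertain by 1 bp. Intervals on chromosomes 1 to 19 were kept, and 110 AML intervals on X, 14 on Y and 1 on an unplaced contig were left out.

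Overlapping intervals within a list, even by 1 bp, were joined (6680 AML sites came from 1 interval, 97 from 2 and 1 from 3). Genes came from a RefSeq table of GRCm38.p6, whose coordinates are those of mm10. It gives no strand, so strand and starts were taken from the RefSeq promoter windows, which hold no entry for chromosome 18. A site is at a gene end when its midpoint lies within 1 kb of either end of a protein-coding gene, otherwise in a gene body or intergenic. It counts for the gene whose end is nearest, up to 100 kb away. Clusters join sites at most 10 kb apart. Intervals cover counting error over sites, or over promoter windows for motifs, and nothing else, at 95%.

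The lists and the loci were chosen with earlier results of these data known. By rule the text names the 20 genes with most sites (ties by sites within 10 kb, then symbol), per gene list the 4 most occupied members and 2 members at its head without a site, the 10 largest clusters, the 5 widest, 5 narrowest and 5 farthest sites, and Tet2, Npm1, Flt3 and Runx1. The loci with distances and other genes were added. Some genes that the rule takes, and 1 of the gene lists, are not reported here. Of the listed genes Azu1 and Tpsab1 did not match, and members on X were left out. The planned motif count over whole sites was replaced by promoter windows, since no genome sequence was used here. Merging, overlap and location were tested on simulated data with 0 wrong calls. Python 3.11.15, numpy 2.4.6, pandas 2.3.3, scipy 1.17.1 and matplotlib 3.10.9 were used. No test was run, since the lists hold 1 set of positions per culture.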

Additional observations from a re-analysis of the deposited data

Results flagged for a closer look

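Signal outside the sites described lay on the sex chromosomes. The AML list held 110 intervals on chromosome X, 1.57% of its 7002 intervals, where the myeloid list had 293, 1.49% of 19706. On chromosome Y it held 14 intervals, 0.200% of the list, where the myeloid list had 2, 0.0101%. Of the 14, 13 lay between positions 90737270 and 90836709 near the end of the chromosome and 1 at 12300381. These counts are of deposited intervals before joining, and some of the 14 on Y overlap each other. The difference on Y was not tested.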

How the results depend on the processing

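The gene-end share was 6.14% with a limit of 0.5 kb, 13.7% with 2 kb and 14.3% with all annotated genes. The gene-body share was 47.0%, 43.0% and 51.8% in the same order, and the intergenic share 43.3% with 2 kb and 33.8% with all annotated genes. Sites over 100 kb from a gene end fell to 2.24% with all annotated genes. Genes with a site were 2175 with assignment within 10 kb and 8007 where any site within 50 kb counts, an alternative chosen after seeing the data. They ranged from 2732 to 4042 under the other settings. Clusters of at least 4 sites numbered 8 at a gap of 5 kb and 78 at 20 kb. Merged sites numbered 6877 without merging and 6686 with intervals up to 500 bp apart joined, and the shared percentage was 71.2% under both stricter overlaps. Listed genes with a site ranged from 250 to 504 of 716, and 26 to 28 of 38 lists lay above their background. T and NK cell genes changed side at 10 kb, at 20 kb and with all annotated genes, HOX and MEIS genes with all annotated genes, and cell cycle, dendritic and proteasome genes with any site within 50 kb. With all annotated genes 10 lists moved by over 1.5 times, stem and progenitor genes to 3 of 22 and TGF-beta genes to 7 of 25 among them. Of the motifs, only the ETS core moved beyond its interval, to 67.7% in the bases before the start alone. Without a score per site, no stricter threshold could be tried, and motifs in the central part of sites were not run. No paired analysis was possible because the lists hold no value per library.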

Other observations

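Outside the lists, gene families by symbol gave further counts, picked after their values were seen and without a test. Of 10 Dock genes, which encode exchange factors of RAC and CDC42, 8 had an AML site (16 sites). The inositol phosphatase family Inpp had 6 of 10, the RAS-association family Rassf 6 of 10, the annexins 7 of 12, and the Rab regulators of the Dennd family 9 of 16. Phosphodiesterases (Pde) had 13 of 26. The background over all protein-coding genes was 19.4%.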
